A study of Mus musculus with 4 samples.

Results

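The neurexin, neuroligin and Cntnap genes considered here were Nrxn2, Nrxn3, Nlgn1, Nlgn2, Cntnap2, Cntnap4, Cntnap5a and Cntnap5b, 8 of the 21911 protein-coding genes of the annotation and 8 of the 14622 with enough counts to be tested. They were listed by name, and their chromatin accessibility was read as the transposition cut sites that fell in peaks over each gene, or over the 2 kb before its start, on mouse build GRCm38. The assay, single-nucleus ATAC-seq, cuts open chromatin with a transposase and counts the cut ends per nucleus. All 4 libraries came from mice of genotype Dlx6aCre;Sun1/sfGFP at P30 (postnatal day 30), with 2 libraries of cortex and 2 of hippocampus, made from sorted nuclei positive for both GFP and DAPI. In this model Cre driven by Dlx6a regulatory sequence switches on a GFP-tagged nuclear envelope protein. The gate is thus meant to hold cells with a history of Dlx6a-driven Cre, chiefly forebrain inhibitory neurons. No treatment was applied, and the labels do not say whether the libraries of a tissue came from separate animals. The p-values between tissues thus measure the spread between these libraries, which may be technical. Those between groups of nuclei of the same libraries measure how far that difference varied from library to library.

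Neurexins are presynaptic adhesion proteins, and neuroligins are their postsynaptic partners. Each neurexin gene has an upstream promoter for the long alpha form and a promoter far inside the gene for the short beta form. The Cntnap genes encode contactin-associated proteins, relatives of the neurexins with a single membrane pass; Cntnap2 is known for clustering potassium channels beside the node of Ranvier, and Cntnap4 for a presynaptic role in interneurons. Neuroligin 2 is the neuroligin of inhibitory synapses and neuroligin 1 is found mainly at excitatory ones. In the mature forebrain Lhx6 marks interneurons born in the medial ganglionic eminence (MGE), and Adarb2 marks those of the caudal ganglionic eminence (CGE).

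The sequences below are 300 bp windows from regions on which the comparisons between Lhx6 and Adarb2 nuclei turned, plus the promoter of the short Nrxn3 transcripts. Each is centred on the stretch that peaks of all 4 libraries cover, which need not be the middle of the region. The Nrxn3 promoter window ends before the annotated start at 89812483. They are from the plus strand of the GRCm38.p6 reference, which is the coding strand of all 4 genes. Capitals mark the letters TAATTA, the core bound by many homeodomain factors including Lhx6, the palindromic NFI motif, TGACTCA, bound by AP-1, and AGGTCA, a core site of nuclear receptors, each searched on both strands. No motif holds the letters of another, and windows without capitals hold none of the 4.
Nrxn3 intron, 188 kb from the 5′ end, chr12:88910931-88911230: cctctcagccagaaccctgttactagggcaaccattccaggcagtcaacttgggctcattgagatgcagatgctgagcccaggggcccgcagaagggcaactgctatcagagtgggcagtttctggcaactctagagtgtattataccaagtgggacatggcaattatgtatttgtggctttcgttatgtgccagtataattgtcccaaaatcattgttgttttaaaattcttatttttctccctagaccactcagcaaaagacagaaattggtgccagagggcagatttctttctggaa
Nrxn3 intron, 963 kb from the 5′ end, chr12:89685743-89686042: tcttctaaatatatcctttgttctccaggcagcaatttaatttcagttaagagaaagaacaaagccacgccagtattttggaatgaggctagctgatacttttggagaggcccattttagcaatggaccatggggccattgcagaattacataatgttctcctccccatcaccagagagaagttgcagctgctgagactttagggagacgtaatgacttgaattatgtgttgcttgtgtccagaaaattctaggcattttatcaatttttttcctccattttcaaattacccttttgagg
Nrxn3 downstream promoter, chr12:89812082-89812381: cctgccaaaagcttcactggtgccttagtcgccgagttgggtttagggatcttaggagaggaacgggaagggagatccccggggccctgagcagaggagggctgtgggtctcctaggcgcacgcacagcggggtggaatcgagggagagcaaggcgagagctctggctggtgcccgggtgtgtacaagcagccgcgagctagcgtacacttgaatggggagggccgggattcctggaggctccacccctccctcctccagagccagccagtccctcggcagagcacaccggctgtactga
Cntnap2 intron, 396 kb from the 5′ end, chr6:45455473-45455772: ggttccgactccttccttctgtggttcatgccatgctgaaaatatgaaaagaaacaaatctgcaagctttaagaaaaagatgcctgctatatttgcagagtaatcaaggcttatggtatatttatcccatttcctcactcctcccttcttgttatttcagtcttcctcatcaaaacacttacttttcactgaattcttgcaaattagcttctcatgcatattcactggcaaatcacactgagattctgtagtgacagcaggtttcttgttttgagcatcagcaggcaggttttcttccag
Cntnap4, 246 kb from the 5′ end, chr8:112815265-112815564: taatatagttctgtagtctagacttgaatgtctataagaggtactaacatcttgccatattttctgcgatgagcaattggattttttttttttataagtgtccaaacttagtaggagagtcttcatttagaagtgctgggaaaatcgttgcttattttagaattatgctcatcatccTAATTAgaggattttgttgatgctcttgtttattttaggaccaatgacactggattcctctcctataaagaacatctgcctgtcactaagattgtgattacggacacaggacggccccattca
Cntnap5a intron, 102 kb from the 5′ end, chr1:115786340-115786639: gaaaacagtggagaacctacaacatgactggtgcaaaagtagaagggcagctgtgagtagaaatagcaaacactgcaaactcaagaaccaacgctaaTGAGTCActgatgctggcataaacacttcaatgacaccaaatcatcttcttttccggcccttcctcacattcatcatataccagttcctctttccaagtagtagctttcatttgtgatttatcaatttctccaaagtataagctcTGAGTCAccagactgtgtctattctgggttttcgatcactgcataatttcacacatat
Cntnap5a intron, 471 kb from the 5′ end, chr1:116155395-116155694: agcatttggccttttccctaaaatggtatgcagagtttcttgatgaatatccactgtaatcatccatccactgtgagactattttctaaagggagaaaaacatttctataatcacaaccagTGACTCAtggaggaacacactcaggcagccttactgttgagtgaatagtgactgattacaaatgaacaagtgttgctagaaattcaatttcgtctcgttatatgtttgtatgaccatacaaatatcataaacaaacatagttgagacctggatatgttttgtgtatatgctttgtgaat

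Of the windows shown, both Cntnap5a windows held TGACTCA or its reverse complement, the one 102 kb from the 5′ end at 2 positions, and TAATTA stood in the Cntnap4 window. Over all 97 common regions of the 8 genes, TAATTA was found in 15 windows, TGACTCA in 8, AGGTCA in 11 and the NFI motif in 0. Over the windows of all 46698 common regions these letters were found in 6.11%, 9.24%, 12.4% and 0.0321%, in the same order. The windows of the 8 genes had a median GC content of 48.7%, against 52.3% over all common regions, and those at a transcript start had 56.7%. Among regions away from starts, the 18 that were higher in Lhx6 nuclei had a median of 42.3% GC and the 13 higher in Adarb2 nuclei 46.0%. TGACTCA was found in 4 of the 18 and 1 of the 13, and TAATTA in 3 of the 18 and 2 of the 13. These are matches of letters and say nothing of binding.

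The libraries held 15306 nuclei, between 2355 and 5576 in each, and differed in depth. The summed cut sites in peaks ranged from 32005984 in cortex replicate 2 to 117290059 in cortex replicate 1, and the median per nucleus from 7352 to 47236 in the same libraries. Peak calling was separate for each library and gave 61965 peaks in cortex replicate 2 and 157220 in hippocampus replicate 1. Of the nuclear barcodes, 138 occurrences were shared between pairs of libraries, 11 to 47 per pair. The number of peaks over a gene differed between libraries: Nrxn3 carried 135 and 41 peaks in the first and second cortex libraries and 190 and 96 in those of hippocampus, an order kept for all values below. Genes were therefore compared over common regions, those with a peak of every library, as counts scaled to the depth of each sum by TMM, called normalised CPM. Within a common region each library was counted over its own peaks, whose width could differ between libraries. Common regions held 54.5% to 98.0% of the Nrxn3 cut sites, 90.9% or more of those of Nrxn2 and, at the lowest, 30.1% of those of Cntnap5b in hippocampus replicate 1.

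Per kb of gene body, Nlgn2 was the most accessible of the 8 genes, at a mean over the 4 libraries of 9.91 normalised CPM per kb. It was followed by Nrxn2 at 4.62. Of the Nlgn2 signal, 92.9% lay in the region of its starts, which also covers an exon of Tmem256. Nrxn3 and Cntnap4 came next at 0.361 and 0.317 per kb, and their libraries overlapped. Cntnap2, Cntnap5a and Nlgn1 at 0.125, 0.109 and 0.0965 per kb also overlapped from library to library. Cntnap5b, the lowest at 0.0387, lay under the others in all 4 libraries. This order places the short genes Nlgn2 and Nrxn2 first, which span 14.7 kb and 125 kb, whereas Cntnap2 spans 2245 kb. Within common regions length did not give the whole order, since Nrxn3, at 1612 kb, came next after them. These regions held 36.2% to 93.4% of the Cntnap4 cut sites and 54.5% to 98.0% of those of Nrxn3. The order of Nrxn3 and Cntnap4 thus depends on the regions counted.

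The plot of the 8 genes by library and gate shows these levels. Nuclei were placed in gates within each library by the share of their cut sites in Lhx6 and Adarb2 peaks. A nucleus was in the Lhx6 gate when its Lhx6 share was above the pooled share of its library and its Adarb2 share was not, and in the Adarb2 gate in the reverse case. The Lhx6 gate held 686, 633, 1386 and 749 nuclei and the Adarb2 gate 639, 427, 1391 and 777. A further 94 to 638 nuclei per library were above for both genes, a class in which doublets may lie, and 739 to 3037 were above for neither; doublets were not removed otherwise. In cortex replicate 2, with few cut sites per nucleus, the gate came close to asking for a single cut site in the gene, and 72.5% of nuclei were above for neither gene.

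**Figure D1:**
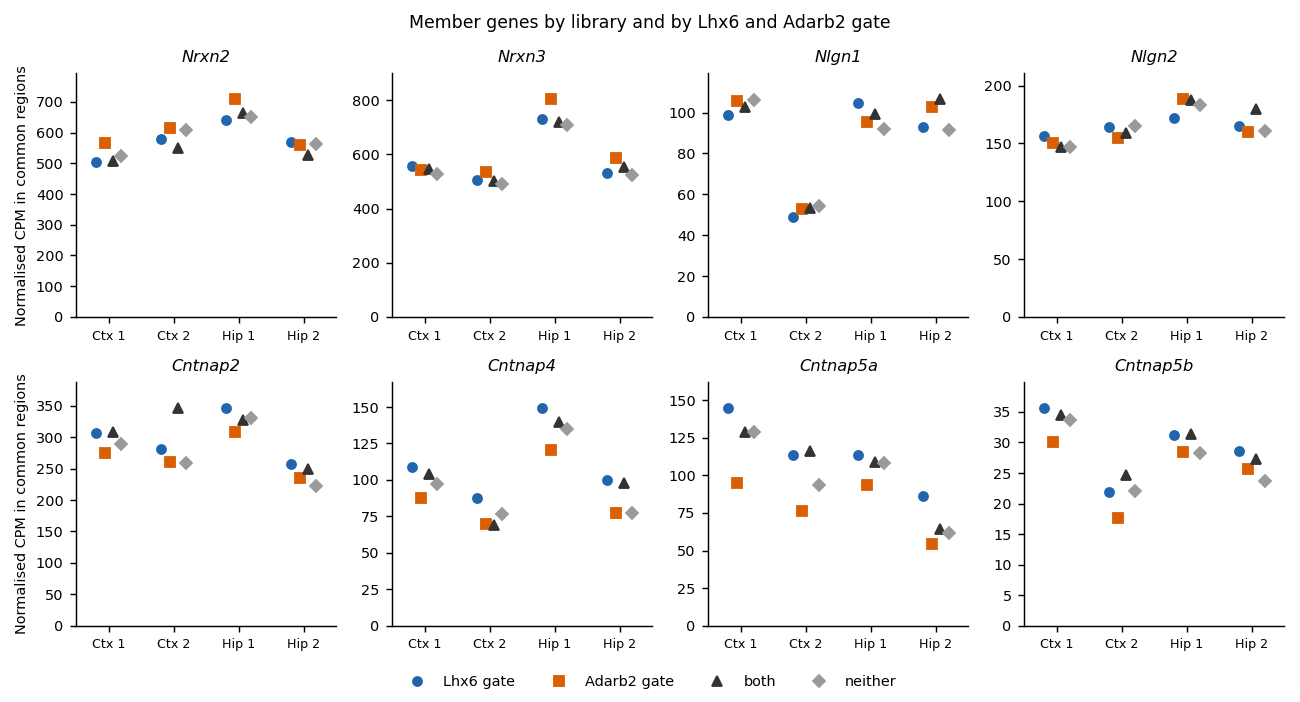
Normalised CPM of each gene summed over common regions (vertical axis, from 0), by library (Ctx, cortex; Hip, hippocampus; number, replicate) and gate (blue circles, Lhx6; orange squares, Adarb2; dark triangles, both; grey diamonds, neither). In all 4 libraries the Lhx6 gate lies above the Adarb2 gate for the 4 Cntnap genes, and Nlgn1 is low in all gates of cortex replicate 2.

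Of 6 tested genes of the MGE list 5 were higher in the Lhx6 gate, and of 6 of the CGE list 4 were lower (edgeR adjusted p under 0.05). Among these, Sox6 and Satb1, MGE transcription factors, were higher by 0.68 and 0.44 (log2), and Htr3a and Nr2f2, CGE genes, were lower by -1.14 and -0.45. Lhx6 and Adarb2, which define the gates, and Prox1 of the CGE list did not pass (edgeR adjusted p = 0.0866, 0.0636 and 0.0635). Of 7 pan-GABA genes 1 passed, Dlx1, lower in the Lhx6 gate at -0.18 (edgeR adjusted p = 0.00108). Pan-GABA genes had a summed level of 720 to 1165 CPM in the libraries' own peaks and excitatory neuron genes 40.0 to 68.7 CPM, with no cut sites in peaks over Neurod6 in any library; Aif1 of the microglia list was likewise at 0. No excitatory, astrocyte, oligodendrocyte or striatal marker passed the test between gates, and many had no common region to test. In own peaks the oligodendrocyte list summed to 55.5 and 35.9 CPM in cortex and to 97.4 and 93.6 CPM in hippocampus. The astrocyte list summed to 116 and 145 against 156 and 118 CPM. The comparison of tissues over all sorted nuclei includes any such nuclei. P2ry12 of the microglia list was higher in the Lhx6 gate by 0.93 and Pecam1 of the endothelium list lower by -0.26. These genes overlap Med12l and Milr1, so that their cut sites are not theirs alone. The summed microglia list spanned 179 to 203 CPM in the Lhx6 gate and 177 to 227 CPM in the Adarb2 gate. The summed endothelium list spanned 63.3 to 129 and 67.8 to 131. Cx3cr1 of the microglia list, at 180 to 204 normalised CPM over the libraries, overlaps Wdr48, Gorasp1, Ttc21a, Csrnp1 and Xirp1. The microglia sum is therefore no measure of microglial nuclei. Whether nuclei of these types bear on the genes below was not tested.

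The comparison of the gates asked whether the synaptic adhesion genes differ in accessibility between Lhx6 and Adarb2 nuclei of the same libraries. Cntnap5a, Cntnap4 and Cntnap2 were more accessible in the Lhx6 gate, by 1.44-, 1.25- and 1.10-fold. Nrxn2, Nrxn3, Nlgn1, Nlgn2 and Cntnap5b did not pass the test as whole genes. Of all genes tested 11.9% passed, 6.53% higher and 5.41% lower in the Lhx6 gate (edgeR quasi-likelihood test with library as a block, Benjamini-Hochberg adjusted p under 0.05), against 3 of the 8 genes here. Sums over nuclei cannot tell more nuclei with open chromatin from more open chromatin per nucleus. Without the library block no gene passed, and none of the 8 passed after each nucleus was thinned to 2000 cut sites before gating.

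Cntnap5a, of the Cntnap5 subfamily, differed most. It had 145, 113, 113 and 86.5 normalised CPM in the Lhx6 gate and 95.1, 76.3, 94.0 and 54.2 in the Adarb2 gate. The Lhx6 value was the higher in each library, and over libraries the gates overlapped only through hippocampus replicate 2. The log2 difference was 0.52 ± 0.06 (SE, n = 4 libraries; edgeR adjusted p = 1.16e-06). By library it was 0.61, 0.57, 0.27 and 0.67, so that hippocampus replicate 1 showed the smallest.

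Cntnap4 had 109, 87.4, 149 and 100.0 normalised CPM in the Lhx6 gate and 87.6, 70.1, 121 and 77.4 in the Adarb2 gate. The difference was in the same direction in 4 of 4 libraries and nearly equal in size, between 0.30 and 0.37 (log2). The edgeR estimate was 0.32 ± 0.05 (adjusted p = 4.05e-05).

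Cntnap2 had 307, 281, 345 and 258 normalised CPM in the Lhx6 gate and 275, 261, 309 and 234 in the Adarb2 gate. All 4 libraries were higher in the Lhx6 gate, by 0.10 to 0.16 (log2), less than the spread between libraries. The edgeR estimate, which compares gates within libraries, was 0.14 ± 0.04 (adjusted p = 0.00921). This call was lost with gates drawn at 2 times the pooled level (adjusted p = 0.0763), without cortex replicate 1 (0.0564) and when all peaks of each library were summed in place of common regions (0.243).

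Cntnap5b, the lowest of the 8, had 35.6, 21.9, 31.2 and 28.6 normalised CPM in the Lhx6 gate and 30.0, 17.7, 28.5 and 25.6 in the Adarb2 gate. It was higher in the Lhx6 gate in 4 of 4 libraries, but the estimate of 0.20 ± 0.09 did not pass (edgeR adjusted p = 0.161). With all peaks of each library it was 0.22 ± 0.06 and passed (adjusted p = 0.0311).

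The neurexins leaned the other way without passing. Nrxn2 had 505, 579, 640 and 571 normalised CPM in the Lhx6 gate and 565, 616, 710 and 560 in the Adarb2 gate, with an estimate of -0.09 ± 0.03 (edgeR adjusted p = 0.0821). Without hippocampus replicate 2, the only library with a higher Lhx6 value, its adjusted p was 0.0289. Nrxn3 had 558, 504, 728 and 532 in the Lhx6 gate and 542, 534, 805 and 586 in the Adarb2 gate, with an estimate of -0.08 ± 0.04 (adjusted p = 0.155). Cortex replicate 1 alone was higher in the Lhx6 gate, and without it the adjusted p was 0.0327.

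The neuroligins showed no difference that passed. Nlgn1 had 98.8, 48.6, 104 and 93.2 normalised CPM in the Lhx6 gate and 106, 52.7, 95.6 and 102 in the Adarb2 gate (log2 difference -0.05 ± 0.06, edgeR adjusted p = 0.683). Nlgn2 had 156, 164, 171 and 166 in the Lhx6 gate and 150, 154, 188 and 160 in the Adarb2 gate (0.01 ± 0.05, adjusted p = 0.932). In both genes the gates overlapped and hippocampus replicate 1 went against the other 3 libraries.

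**Figure D2:**
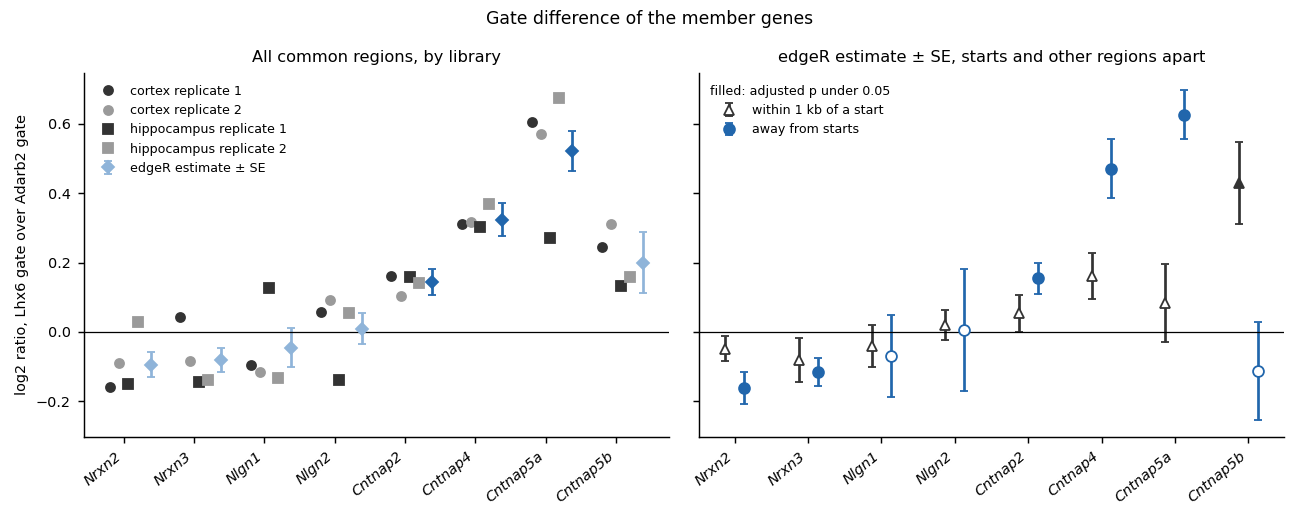
Log2 ratio of the Lhx6 over the Adarb2 gate for each gene (horizontal axis). Left, each library (circles, cortex; squares, hippocampus) with the edgeR estimate and its SE (diamonds, dark where the adjusted p is under 0.05); right, the estimate over regions within 1 kb of a start (triangles) and over the others (circles), filled where it passed. Away from starts Cntnap4 and Cntnap5a reach 0.47 and 0.63, while at the starts only Cntnap5b passed.

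When regions within 1 kb of a coding transcript's start were separated from the others, 5 of the 8 genes passed away from starts, against 23.7% of all genes measured there (12.5% higher and 11.2% lower in the Lhx6 gate). Cntnap5a was higher in the Lhx6 gate by 0.63 ± 0.07 (edgeR adjusted p = 1.59e-05), Cntnap4 by 0.47 ± 0.08 (0.000627) and Cntnap2 by 0.16 ± 0.05 (0.0172). Nrxn2 was lower, at -0.16 ± 0.05 (0.0153), and so was Nrxn3, at -0.12 ± 0.04 (0.0418). Over the regions near starts only Cntnap5b of the 8 passed, against 4.58% of all genes (2.29% in each direction), at 0.43 ± 0.12 (0.0241). Cntnap5b away from starts was at -0.11 ± 0.14 and did not pass. The starts of Cntnap5a, Cntnap4 and Cntnap2 were at 0.08 ± 0.11, 0.16 ± 0.07 and 0.05 ± 0.05, and that the difference at starts was smaller than the one away from them was not itself tested.

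By single regions, 33 of the 97 common regions of the 8 genes passed, against 20.2% of all common regions tested; 19 were higher in the Lhx6 gate and 14 lower, against 10.6% and 9.54%. Of the 83 away from starts 31 passed, 18 higher in the Lhx6 gate and 13 higher in the Adarb2 gate, against 24.0% of all such regions in genes, 13.3% higher and 10.7% lower. Of the 14 regions at starts 2 passed, 1 higher and 1 lower in the Lhx6 gate, against 7.20% of all regions at starts, 2.15% higher and 5.05% lower. The map of regions along Nrxn3, Cntnap2, Cntnap5a and Nrxn2 gives each value by its distance from the gene's 5′ end. Regions that passed in Nrxn3 and Cntnap2 lay on both sides of 0, and the 4 in Cntnap5a were all higher in the Lhx6 gate.

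**Figure D3:**
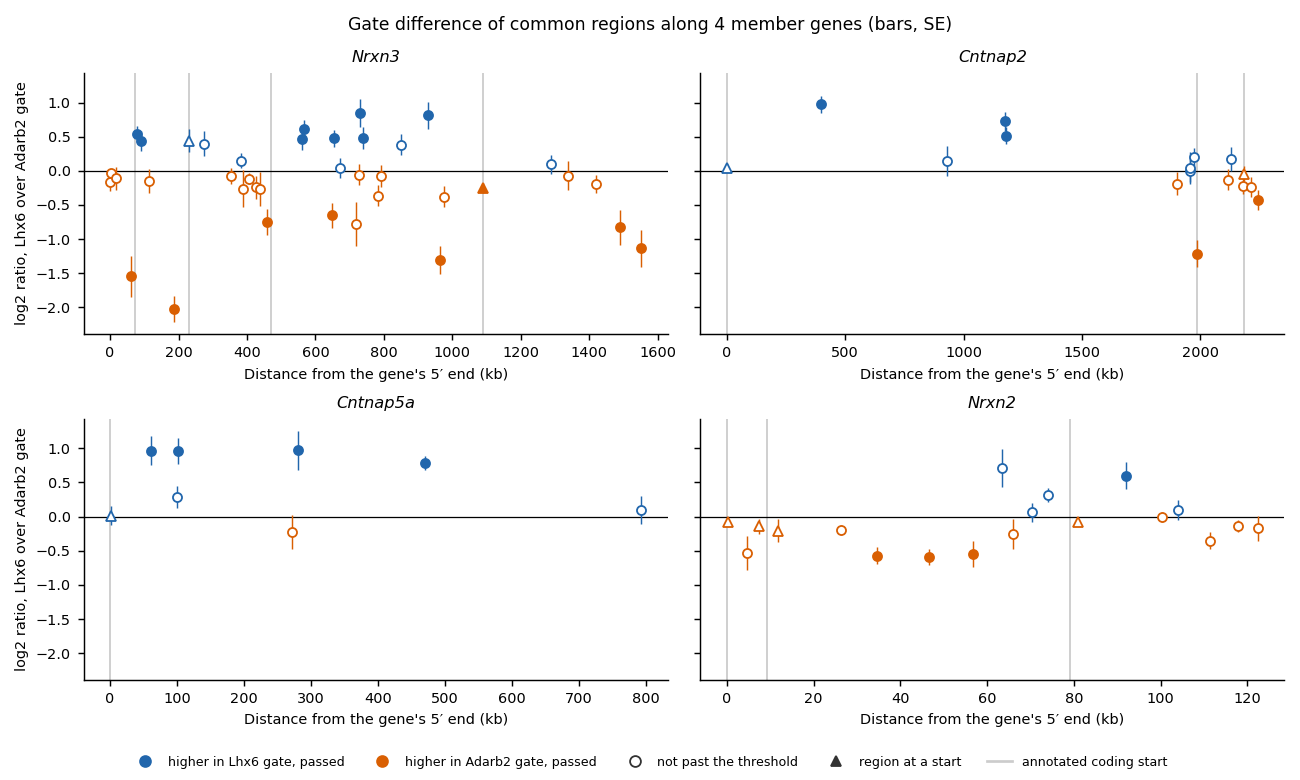
Log2 ratio of the Lhx6 over the Adarb2 gate for common regions (vertical axis; bars, SE), all but 1 of those in the 4 genes, against its distance from the 5′ end of the gene in kb. Filled symbols passed, triangles are regions at a start and grey lines are annotated coding starts; in Nrxn3 passing regions run from -2.02 to 0.85, and those of Cntnap2 that are drawn lie from -1.21 to 0.97.

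Nrxn3 held 38 common regions, of which 16 passed, 8 in each direction, against 20.2% of all common regions tested. The region at chr12:88910748-88911376, in an intron 188 kb from the 5′ end, had the largest difference of the 97. It had 1.35, 4.43, 6.20 and 3.98 normalised CPM in the Lhx6 gate and 8.17, 14.2, 20.5 and 16.5 in the Adarb2 gate, and no Lhx6 value reached the lowest Adarb2 value. It was 4.06-fold higher in the Adarb2 gate (log2 difference -2.02 ± 0.19, edgeR adjusted p = 1.08e-05). The first of the sequences shown lies within this region.

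The region at chr12:89685432-89686310, 963 kb from the 5′ end, had 6.69, 5.91, 19.8 and 13.0 normalised CPM in the Lhx6 gate and 24.0, 23.9, 31.8 and 26.2 in the Adarb2 gate. The gates did not overlap, and it was 2.47-fold higher in the Adarb2 gate (-1.31 ± 0.21, edgeR adjusted p = 0.00268). Its call held in 6 of 7 alternative fits (adjusted p up to 0.249). In both regions the difference was in the same direction in 4 of 4 libraries. The regions of Nrxn3 that were higher in the Lhx6 gate had differences of 0.44 to 0.85. The largest of them, chosen here after its value was seen, was the intronic region at chr12:89453877-89454778 with 9.52, 9.78, 10.5 and 4.83 in the Lhx6 gate and 5.03, 5.44, 8.31 and 1.58 in the Adarb2 gate (0.85 ± 0.21, adjusted p = 0.00938). The whole-gene value of -0.08 summed these regions of opposite direction.

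The promoters of Nrxn3 differed from each other in accessibility. The annotated start of the longest coding transcript, at position 88794504 on chromosome 12, had no peak in any library, nor did the start at 89193106. The 5′ end of the gene, where the annotation starts transcripts not classed as protein-coding, was open in each library: the common region there had 18.7, 20.6, 17.2 and 15.7 normalised CPM over all nuclei, and the one 3.51 kb from the 5′ end had 56.6, 24.8, 51.2 and 57.7. Neither passed between gates (edgeR adjusted p = 0.472 and 0.941). The start at 88953399, of a transcript with 1100 codons, lay in a region with 18.2, 12.9, 11.8 and 5.97 normalised CPM in the Lhx6 gate and 13.0, 7.56, 11.7 and 3.65 in the Adarb2 gate (0.44 ± 0.17, edgeR adjusted p = 0.0748). The downstream start at 89812483, of the short form with 567 codons, had 35.8, 43.2, 42.2 and 40.8 in the Lhx6 gate and 46.9, 41.4, 50.0 and 48.9 in the Adarb2 gate. This promoter was 1.19-fold higher in the Adarb2 gate in 3 of 4 libraries (-0.25 ± 0.07, adjusted p = 0.0276). The call was lost with gates at 2 times the pooled level (0.122) and on leaving out cortex replicate 1, hippocampus replicate 1 or hippocampus replicate 2 (0.195, 0.0948 and 0.0899). Of the 2 protein-coding starts with a peak, the downstream one was the more accessible in all 8 sums. Over all nuclei its region had 38.9, 42.7, 43.2 and 46.6 normalised CPM. The region 3.51 kb from the 5′ end was higher than that in each library but cortex replicate 2. Both regions at the 5′ end were counted as away from starts in the values above.

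In Nrxn2 the 3 starts of its coding transcripts were all open. The region over the alpha start at 6418731 on chromosome 19 had 77.8 to 97.1 normalised CPM in the Lhx6 gate and 81.8 to 102 in the Adarb2 gate, and shares sequence with an exon of the neighbouring gene Gm14965. The region over the beta start at 6497828 had 136 to 159 and 139 to 159. Neither passed (edgeR adjusted p = 0.267 and 0.303). The second alpha start, at 6427923, was at 17.2 to 27.7 and 19.0 to 27.9 and did not pass either (0.416).

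Within Nrxn2, 4 of the 19 common regions passed, near the share of 20.2% over all common regions tested. The region at chr19:6464523-6465983, which overlaps an exon 46.5 kb from the 5′ end, had 11.5, 24.7, 20.6 and 18.5 normalised CPM in the Lhx6 gate and 21.9, 37.5, 26.2 and 25.4 in the Adarb2 gate. It was 1.51-fold higher in the Adarb2 gate in 4 of 4 libraries (-0.59 ± 0.12, edgeR adjusted p = 0.00205). Its neighbour at chr19:6451740-6454792 had 23.0, 31.8, 40.8 and 37.0 in the Lhx6 gate and 46.5, 49.3, 52.8 and 43.4 in the Adarb2 gate, with no overlap between gates (-0.58 ± 0.12, adjusted p = 0.0112; 0.107 without cortex replicate 2). The calls of the regions at chr19:6464523-6465983 and chr19:6451740-6454792 held in 6 and 5 of 7 alternative fits, with adjusted p up to 0.921 and 0.639. The intronic regions 56.7 kb and 92.1 kb from the 5′ end passed at -0.55 ± 0.18 and 0.60 ± 0.20, on as few as 3 and 8 cut sites in a sum.

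The plot of single regions sets the regions with the smallest p of 5 genes side by side. Cntnap2, whose gene body is the longest of the 8, held 17 common regions, and 6 passed, against 20.2% of all common regions tested. The intronic region at chr6:45455223-45455987 had 26.7, 34.7, 21.8 and 15.8 normalised CPM in the Lhx6 gate and 12.9, 20.6, 10.7 and 7.89 in the Adarb2 gate. It was 1.96-fold higher in the Lhx6 gate (log2 difference 0.97 ± 0.12, edgeR adjusted p = 6.42e-05). All 4 libraries had the higher value in the Lhx6 gate, and over libraries the gates overlapped. The call held in 6 of 7 alternative fits (adjusted p up to 0.333).

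**Figure D4:**
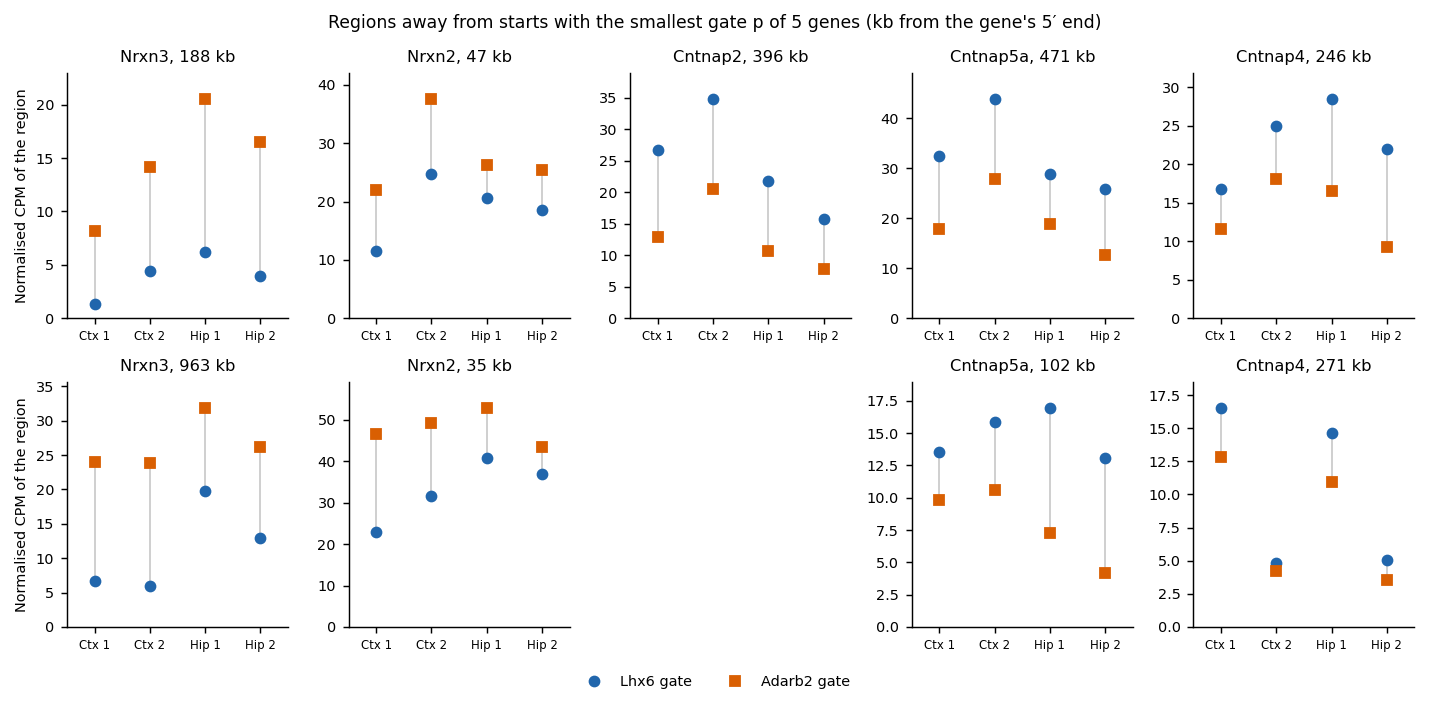
Normalised CPM (vertical axis, from 0) of the regions away from starts with the smallest gate p in each of 5 genes (2 each, 1 for Cntnap2), by library; blue circles, Lhx6 gate; orange squares, Adarb2 gate; titles give the distance from the gene's 5′ end in kb. The Nrxn3 and Nrxn2 regions are higher in the Adarb2 gate in every library and the Cntnap regions higher in the Lhx6 gate; the Cntnap4 region at 271 kb did not pass.

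Another Cntnap2 region, named after its value was seen, went the other way. It lies at chr6:47042515-47043164, 1983 kb from the 5′ end, and had 3.34, 4.80, 6.83 and 7.76 normalised CPM in the Lhx6 gate and 10.8, 14.5, 14.6 and 11.4 in the Adarb2 gate (-1.21 ± 0.20, edgeR adjusted p = 0.000536). The promoter of the full-length Cntnap2 transcripts, at 45059357 on chromosome 6, was at 55.0 to 66.0 in the Lhx6 gate and 57.4 to 60.8 in the Adarb2 gate (0.04 ± 0.06, adjusted p = 0.73). The promoter of the short 3′ transcripts, at 47244387, was at 19.0 to 25.0 and 16.9 to 25.5 (-0.04 ± 0.11, adjusted p = 0.836). Neither promoter passed.

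In Cntnap5a 4 of the 8 common regions passed, all 4 in introns, against 20.2% of all common regions tested. The region at chr1:116154878-116156224 had 32.4, 43.8, 28.8 and 25.9 normalised CPM in the Lhx6 gate and 17.9, 27.8, 18.8 and 12.7 in the Adarb2 gate (0.79 ± 0.10, edgeR adjusted p = 9.05e-05). Its call held in 6 of 7 alternative fits (adjusted p up to 0.213). The region at chr1:115786114-115786866 had 13.6, 15.9, 16.9 and 13.1 in the Lhx6 gate and 9.82, 10.6, 7.28 and 4.14 in the Adarb2 gate, and the gates did not overlap (0.96 ± 0.19, adjusted p = 0.00245). The start of the gene, at 115684756, was at 9.97 to 33.2 and 14.8 to 26.2, with 2 libraries higher in each gate (0.01 ± 0.14, adjusted p = 0.972). Its region also covers an exon of Gm17916.

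In Cntnap4 1 of 5 common regions passed, against 20.2% of all common regions tested. The region that passed lies at chr8:112815033-112816649 over an exon, and its window holds 85 coding bases. It had 16.8, 24.9, 28.4 and 22.0 normalised CPM in the Lhx6 gate and 11.6, 18.1, 16.5 and 9.27 in the Adarb2 gate, higher in the Lhx6 gate in 4 of 4 libraries (0.76 ± 0.14, edgeR adjusted p = 0.00115). The region 271 kb from the 5′ end, at 4.80 to 16.5 and 3.55 to 12.8, did not pass (0.39 ± 0.16, adjusted p = 0.108). The promoter, at 112570043, was at 36.4 to 61.3 and 28.1 to 56.4 and did not pass (0.13 ± 0.07, adjusted p = 0.228).

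Cntnap5b was the one gene whose promoter passed in favour of the Lhx6 gate. The region at its start, 99772765 on chromosome 1, had 19.3, 15.7, 14.8 and 16.9 normalised CPM in the Lhx6 gate and 15.1, 10.3, 11.4 and 13.2 in the Adarb2 gate (0.40 ± 0.13, edgeR adjusted p = 0.0391). Its direction was the same in 4 of 4 libraries, but the call was lost on leaving out any 1 library (adjusted p from 0.0895 to 0.107). An intronic region 140 kb from the 5′ end was higher in the Adarb2 gate (-0.71 ± 0.21, adjusted p = 0.0266) on counts of 0 in both gates of cortex replicate 2. This call was lost without cortex replicate 1, hippocampus replicate 1 or hippocampus replicate 2 (adjusted p = 0.0814, 0.111 and 0.114). The intronic region 213 kb from the 5′ end did not pass (0.45 ± 0.21, 0.138).

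None of the 7 common regions of the neuroligins passed, where 20.2% of all common regions tested did. The main Nlgn2 region, which covers both coding starts and an exon of Tmem256, was at 133 to 155 normalised CPM in the Lhx6 gate and 139 to 150 in the Adarb2 gate (-0.02 ± 0.05, edgeR adjusted p = 0.857). The upstream start of Nlgn1, which shares its region with A830092H15Rik, was at 31.4 to 45.5 and 38.7 to 52.0 (-0.11 ± 0.07, adjusted p = 0.329). Its inner start, at 26153307 on chromosome 3, had 26.4, 0, 18.1 and 23.5 in the Lhx6 gate and 28.4, 0.605, 17.9 and 21.1 in the Adarb2 gate. Cut sites were counted only in each library's own peaks. Those of cortex replicate 2 covered 9 bp of this region, against 1885, 1655 and 1624 bp in the other libraries. Its near absence of cut sites there, in either gate, is therefore no measure of closed chromatin.

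Whether the gate difference itself differed between the tissues was asked with an interaction term. None of the 8 genes passed, against 0.492% of all genes, 0.445% higher and 0.0479% lower (edgeR). The estimates, as the hippocampal minus the cortical gate difference on the log2 scale, ran from -0.15 ± 0.11 for Cntnap5a to 0.10 ± 0.11 for Nlgn1, with adjusted p from 0.547 to 0.995. With all peaks of each library in place of common regions Cntnap5a alone passed, at -0.38 ± 0.09 (adjusted p = 0.033), against 0.649% of all genes, 0.155% in its direction. In common regions, leaving out hippocampus replicate 1 turned the estimate to 0.08.

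Cortex and hippocampus were compared over all sorted nuclei. None of the 8 genes and none of their 97 regions passed, as was so for all other genes and regions tested (0.00% of each, edgeR quasi-likelihood test; 511 genes and 3803 regions had an unadjusted p under 0.05, and DESeq2 called 21 and 352). The largest difference in size was in Cntnap5a, with 125 and 95.7 normalised CPM in cortex and 106 and 66.6 in hippocampus (log2 difference -0.36 ± 0.25, edgeR adjusted p = 1). Cntnap4 had 99.7 and 77.4 in cortex and 136 and 86.0 in hippocampus (0.33 ± 0.25). The tissues overlapped in both. Nrxn3 had 546 and 498 in cortex and 741 and 545 in hippocampus (0.30 ± 0.25), and Nrxn2 529 and 600 against 665 and 559 (0.12 ± 0.23).

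Nlgn1 had 104 and 52.8 normalised CPM in cortex and 97.4 and 96.6 in hippocampus, so that cortex replicate 2, the shallowest library, stood apart (0.31 ± 0.31, edgeR adjusted p = 1). Without cortex replicate 1 it passed at 0.88 ± 0.20 (adjusted p = 0.00856), where 2.50% of all genes passed, 2.39% in this direction. Leaving out cortex replicate 2 in its place gave -0.075. At the inner Nlgn1 start the peaks of cortex replicate 2 covered 9 bp of the region, against 1885 bp in cortex replicate 1. How far peak width bears on the value of the gene was not tested. Nlgn2 was at 151 and 163 against 182 and 164 (0.14 ± 0.18), both hippocampal libraries being above those of cortex. Cntnap2 was at 295 and 265 against 329 and 239 (0.02 ± 0.23), and Cntnap5b at 33.6 and 21.6 against 29.6 and 25.9 (0.01 ± 0.25). Within nuclei of either gate alone, none of the 8 genes passed between tissues. The same held for every gene tested, with 0 of 14621 called in the Lhx6 gate and 0 of 14622 in the Adarb2 gate.

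Other genes of the pathway were read from lists of named genes by role. Of 5 further family members, 1 passed between gates, Cntnap5c, higher in the Lhx6 gate by 0.27 ± 0.06 (edgeR adjusted p = 0.0052); Cntnap3 was at 0.30 ± 0.11 (0.0862). For these lists the share over all genes tested was 11.9%, with 6.53% higher and 5.41% lower in the Lhx6 gate. Of 6 contactins, the membrane-anchored partners of Cntnap proteins, 4 passed and all were higher in the Lhx6 gate. They were Cntn3 at 0.27 ± 0.05 (0.000883), Cntn1 at 0.23 ± 0.05 (0.00326), Cntn4 at 0.16 ± 0.04 (0.00789) and Cntn6 at 0.29 ± 0.08 (0.0192). The median over the 6 contactins was 0.20.

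Of 16 measured neurexin ligands 4 passed higher and 2 lower in the Lhx6 gate, against 6.53% and 5.41% of all genes tested. Nxph1 and Nxph2, which encode neurexophilins that bind alpha neurexins, were higher by 0.36 ± 0.04 (edgeR adjusted p = 3.02e-06) and 0.49 ± 0.09 (0.000667). The latrophilin gene Adgrl2 was higher by 0.37 ± 0.07 (0.000647) and the calsyntenin gene Clstn2 by 0.23 ± 0.05 (0.000875). The ligands lower in the Lhx6 gate were Lrrtm4 and Adgrl1. The median over the ligands was 0.03. Of the 2 Mdga genes, whose products bind neuroligins and keep neurexins from them, Mdga1 was lower in the Lhx6 gate at -0.31 ± 0.09 (0.0166). Of 10 scaffold and channel genes Magi2 and Epb41l3 passed, both higher, against the same 6.53%. No gene of these lists passed between tissues, as was so for all genes tested.

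Genes whose levels over the 16 sums of 4 gates and 4 libraries, centred per library, were most like those of 6 of the 8 genes were found by Pearson's r of log2 normalised CPM. For Cntnap5a they were Adamts12 (r = 0.973) and Ntm (0.959), for Cntnap2 Krtap4-2 (0.952) and Atp13a3 (0.947), and for Cntnap5b Cfap157 (0.929) and Nploc4 (0.927). For Nrxn3 they were Rara (0.917) and Slc25a33 (0.883), for Nrxn2 Camk2d (0.902) and Nhlrc3 (0.897), and for Nlgn2 Cables2 (0.840) and Psmb5 (0.784). The sums share libraries and their depth, so that r is a description. Once centred per library, the neurexins and neuroligins varied little over the sums, with an SD of 0.05 to 0.07 (log2), against 0.22 for Cntnap5a. Such an SD leaves out differences between libraries, which were large for Nlgn1.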

How the data were processed

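Single-nucleus ATAC-seq was processed by the authors with Cell Ranger ATAC 1.2.0 on GRCm38 (mm10), per the submitters' processing notes. The aligner was not given in the sources used here. The deposited matrices held raw counts of cut sites per peak and nucleus, with peaks called in each library separately. Peaks sharing 1 bp or more were joined into 185260 regions, and tests used the 46698 common regions, in which all 4 libraries had a peak. The deposited motif matrices were not used. Genes, exons and starts were from GENCODE M21. Counts were summed over nuclei and tested in R 4.3.3 with edgeR 4.0.16, using TMM scaling, filterByExpr, its two-sided robust quasi-likelihood test and Benjamini-Hochberg adjustment. Tissues were compared over 4 library sums and gates over 8 sums with library as a block. Fold changes of single regions are edgeR estimates, and scripts were tested on simulated data. Alternatives included DESeq2 1.42.0, RLE scaling, no filter, stricter gates, thinned nuclei and leaving out each library. Named regions were those at coding starts and, per gene, the 2 away from starts with the smallest gate p; a Cntnap2 region and the genes most like Cntnap4 and Nlgn1 are not reported here. The genes and lists were chosen with earlier results of these data known.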

Additional observations from a re-analysis of the deposited data

Results flagged for a closer look

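In 4 of the 97 common regions the gate difference ran in opposite directions in the tissues in every library. At the inner start of Nlgn1 the log2 ratio of the Lhx6 over the Adarb2 gate was -0.10 and -1.14 in cortex and 0.019 and 0.15 in hippocampus, a difference of 0.708 between the tissue means. The cortex replicate 2 value rests on a count of 0 in the Lhx6 gate, over 9 bp of peak. At the Nlgn2 region over exons 11.2 kb from the 5′ end it was 0.36 and 0.28 in cortex and -0.094 and -0.30 in hippocampus, a difference of -0.517. At 2 intronic regions of Nrxn3, 15.9 and 1339 kb from the 5′ end, the ratio was 0.038 and 0.17 in cortex against -0.28 and -0.37 in hippocampus, and 0.39 and 0.50 against -0.65 and -0.19, differences of -0.433 and -0.865. None of the 4 differences was tested. How many of all common regions show such a pattern was not counted, so that the 4 are not set apart from other regions.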

How the results depend on the processing

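Among all tests, the gate comparison lost the most calls, on thinning and without the library block. Thinning to 2000 cut sites left 50 genes and 80 regions, and without the library block 0 genes passed. Thinning also removed most cut sites and redrew the gates, so that it does not isolate depth. DESeq2 called 1029 genes, and regions near starts gave 589. On leaving out a library, 1015 to 1461 genes passed between gates, 22 to 210 in the interaction, and between tissues 0 to 365 genes and 0 to 3193 regions. The lowest gate and interaction counts were without cortex replicate 1, the highest interaction count without cortex replicate 2 and both highest tissue counts without cortex replicate 1. The interaction gave 8 genes with gates at 2 times the pooled level, 1 after thinning and 5 by DESeq2. Between tissues DESeq2 called 21 genes and 352 regions, and all peaks of each library gave 1 gene. Causes were not tested.

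Whether the replicate numbers pair the tissues could not be settled with 2 libraries per tissue that differed in depth. Deviations of same-numbered libraries had r = -0.161 over genes and -0.0375 over regions. A fit with a replicate block called 0 genes and 0 regions, as did the fit without it. The crossed pairing, added after seeing the data, called 201 genes and 909 regions.

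Over the 8 genes and their named regions, 396 alternative values kept direction and side of the threshold, 31 lost it, 9 gained it and 49 changed sign. The sign changes were in values that had not passed, apart from the Nrxn3 downstream promoter at 0.094 after thinning. Between tissues, leaving out a library gave log2 differences of -0.0135 to 0.252 for Nrxn2, -0.0748 to 0.877 for Nlgn1, -0.231 to 0.250 for Cntnap2, -0.0432 to 0.638 for Cntnap4 and -0.251 to 0.365 for Cntnap5b. All peaks gave -0.0596 for Cntnap2, regions at least 50% covered by each library's peaks -0.0167, and regions away from starts -0.0774, with -0.00117 for Nrxn2. Regions near starts gave -0.151 for Cntnap5b.

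Between gates, leaving out a library gave -0.0117 to 0.0646 for Nlgn2, -0.0393 to 0.0375 at its start, -0.0755 to 0.153 at its exon region, -0.0808 to 0.0446 at the inner Nlgn1 start, -0.0285 to 0.0990 and -0.0839 to 0.0155 at the upstream and downstream Cntnap2 starts, and -0.157 to 0.120 at the Cntnap5a start. Thinning gave 0.0951 for Nlgn1, -0.105 for Nlgn2, 0.0473 at the upstream Nlgn1 start, -0.201 and 0.0326 at the Cntnap2 starts and -0.206 at the Cntnap5a start. Gates at 2 times the pooled level gave -0.0336 for Nlgn2, -0.203 at its exon region and -0.0814 at the Cntnap5a start, where DESeq2 gave -0.0073. All peaks gave 0.0258 for Nlgn1, and regions away from starts -0.113 for Cntnap5b.

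In the interaction, leaving out a library gave -0.0132 to 0.158 for Nrxn2, -0.0321 to 0.237 for Nlgn1, -0.0066 to 0.0455 for Cntnap2, -0.00459 to 0.0554 for Cntnap4 and -0.315 to 0.0803 for Cntnap5a. Thinning gave -0.0442 for Nrxn2, -0.0821 for Cntnap2 and -0.298 for Cntnap4, gates at 2 times the pooled level -0.162 for Cntnap4, and all peaks -0.132 for Nlgn1, -0.119 for Cntnap2 and -0.0844 for Cntnap4. In cortex replicate 2 a gate sum of some regions held 0 to 3 cut sites. Small differences there were not detectable at such counts.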
